A study of Mus musculus with 16 samples.

Results

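Macrophages are phagocytes that clear debris and shape inflammation in injured tissue. The disc core normally has no blood vessels and few immune cells, and macrophages are known to enter discs after the outer ring is breached. The genes described here are 10 that are widely used to recognise macrophages: Cd68, Adgre1, Mrc1, Cd163, Lyz2, C1qa, C1qb, C1qc, Trem2 and Cx3cr1. They were picked by symbol as known macrophage markers, with earlier results of these data known, and each matched 1 row of the 49315 genes in the table. In bulk tissue the level of such a gene depends on how many macrophages a disc holds and on how much of the transcript each makes. It also depends on any transcript made by other cells. These parts cannot be told apart here, and neither can fewer cells of a type and less RNA per cell.

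RNA of whole disc tissue from 16 mice was sequenced, and 4 tail discs of each mouse were pooled into 1 library. The groups were 3 wild-type mice with intact discs, 4 wild-type mice with injured discs, 4 Adam8EQ mice with intact discs and 5 Adam8EQ mice with injured discs. Adam8 encodes a membrane-anchored metalloprotease. The labels name the mutant allele only as EQ, and the series title sets the mutants against DBA, an inbred strain. What the allele changes, the number of mouse lines, the age of the mice, the way discs were injured and the time after injury are not given in the sources used here. Levels are in TPM, transcript abundance scaled for gene length and for the total of each library, so levels of different genes can be compared.

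Depth, taken as the reads that the TPM values imply, ranged from 10194979 to 24821294 per library. Between 5 and 678 implied reads stood behind a value of Trem2 and between 5 and 260 behind one of Cx3cr1, against 56 to 24756 for Lyz2, and Adgre1 fell to 6, so levels of Trem2, Cx3cr1 and Adgre1 in intact discs rest on few reads. The disc cartilage genes Acan, Col2a1, Comp, Chad and Sox9 summed to between 5100 and 32770 TPM in every library, and the pan-leukocyte genes Ptprc, Coro1a, Laptm5, Cd53, Cd52 and Lcp1 to between 5.86 and 999.3 TPM. Adam8, the mutated gene, ranged from 0.956 to 2.97 TPM in intact mutants, 1.24 to 1.69 TPM in the intact wild type, 3.52 to 66.3 TPM in the injured wild type and 16.2 to 264.1 TPM in injured mutants. A level of RNA does not check an allele that may change only the protein. Names of mutant libraries begin with A8 in intact and injured mice 1 and 2 and with M in the others. Wild-type names begin with D, so this naming cannot be told apart from genotype.

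The promoter sequences of 5 of the genes are shown because the results turn on these genes: C1qb and C1qc are neighbours on the chromosome, Lyz2 had the largest change of the 10, Mrc1 carries the most copies of the motif searched, and Cd163 is the 1 gene of the 10 that did not pass for injury in mutants. Each is the RefSeq sequence on GRCm38.p6 from 250 bases before to 50 bases after the start of transcription, 5′ to 3′ on the strand of the gene. Capitals mark GAGGAA or its reverse complement TTCCTC, the core of the PU box that is bound by PU.1, a transcription factor of the myeloid lineage encoded by Spi1. RefSeq promoters were matched for 8 of the 10 genes, and those of Adgre1 and C1qa were not among them.
C1qb, chr4:136886151-136886450, minus strand: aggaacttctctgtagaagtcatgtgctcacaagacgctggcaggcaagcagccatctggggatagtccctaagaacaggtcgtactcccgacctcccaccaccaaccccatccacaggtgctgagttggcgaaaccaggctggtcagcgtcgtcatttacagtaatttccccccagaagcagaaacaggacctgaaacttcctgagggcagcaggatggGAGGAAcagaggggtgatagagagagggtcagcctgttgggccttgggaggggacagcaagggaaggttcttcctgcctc
C1qc, chr4:136892865-136893164, minus strand: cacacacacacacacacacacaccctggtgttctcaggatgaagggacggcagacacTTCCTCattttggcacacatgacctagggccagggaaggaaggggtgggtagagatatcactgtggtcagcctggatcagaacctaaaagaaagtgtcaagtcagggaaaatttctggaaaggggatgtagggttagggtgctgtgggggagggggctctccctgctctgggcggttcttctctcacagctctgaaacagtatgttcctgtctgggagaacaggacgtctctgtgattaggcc
Lyz2, chr10:117282223-117282522, minus strand: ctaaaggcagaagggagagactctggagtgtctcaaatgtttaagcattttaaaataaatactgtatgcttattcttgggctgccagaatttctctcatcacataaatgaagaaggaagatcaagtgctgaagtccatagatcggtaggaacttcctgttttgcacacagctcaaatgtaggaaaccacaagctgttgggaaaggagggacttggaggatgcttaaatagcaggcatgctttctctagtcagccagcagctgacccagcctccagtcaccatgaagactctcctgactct
Mrc1, chr2:14229164-14229463, plus strand: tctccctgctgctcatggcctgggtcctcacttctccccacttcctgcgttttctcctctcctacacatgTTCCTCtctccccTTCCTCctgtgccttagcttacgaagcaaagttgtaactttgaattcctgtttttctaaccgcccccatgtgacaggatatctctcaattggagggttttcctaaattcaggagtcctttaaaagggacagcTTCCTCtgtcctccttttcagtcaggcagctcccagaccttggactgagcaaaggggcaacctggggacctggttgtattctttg
Cd163, chr6:124304401-124304700, plus strand: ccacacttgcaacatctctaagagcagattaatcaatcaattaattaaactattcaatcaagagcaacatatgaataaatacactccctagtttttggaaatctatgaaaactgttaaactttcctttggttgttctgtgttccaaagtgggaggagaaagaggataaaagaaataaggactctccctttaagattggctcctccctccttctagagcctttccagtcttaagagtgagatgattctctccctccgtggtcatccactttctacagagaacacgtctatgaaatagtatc

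On either strand, GAGGAA was found in 5 of the 8 promoters, those of Cd68, Mrc1, C1qb, C1qc and Trem2, and in 28.3% of all 32851 promoters of this length. Mrc1 held 3 copies, starting 180, 167 and 35 bases before the start site as written above, and C1qb held 1, starting 30 bases before it. The motif TGANTCA, which AP-1 factors bind, was found in 2 of the 8, Cd68 and Trem2, and in 7.8% of all. These matches describe letters in a window and carry no measurement of binding.

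**Figure D1:**
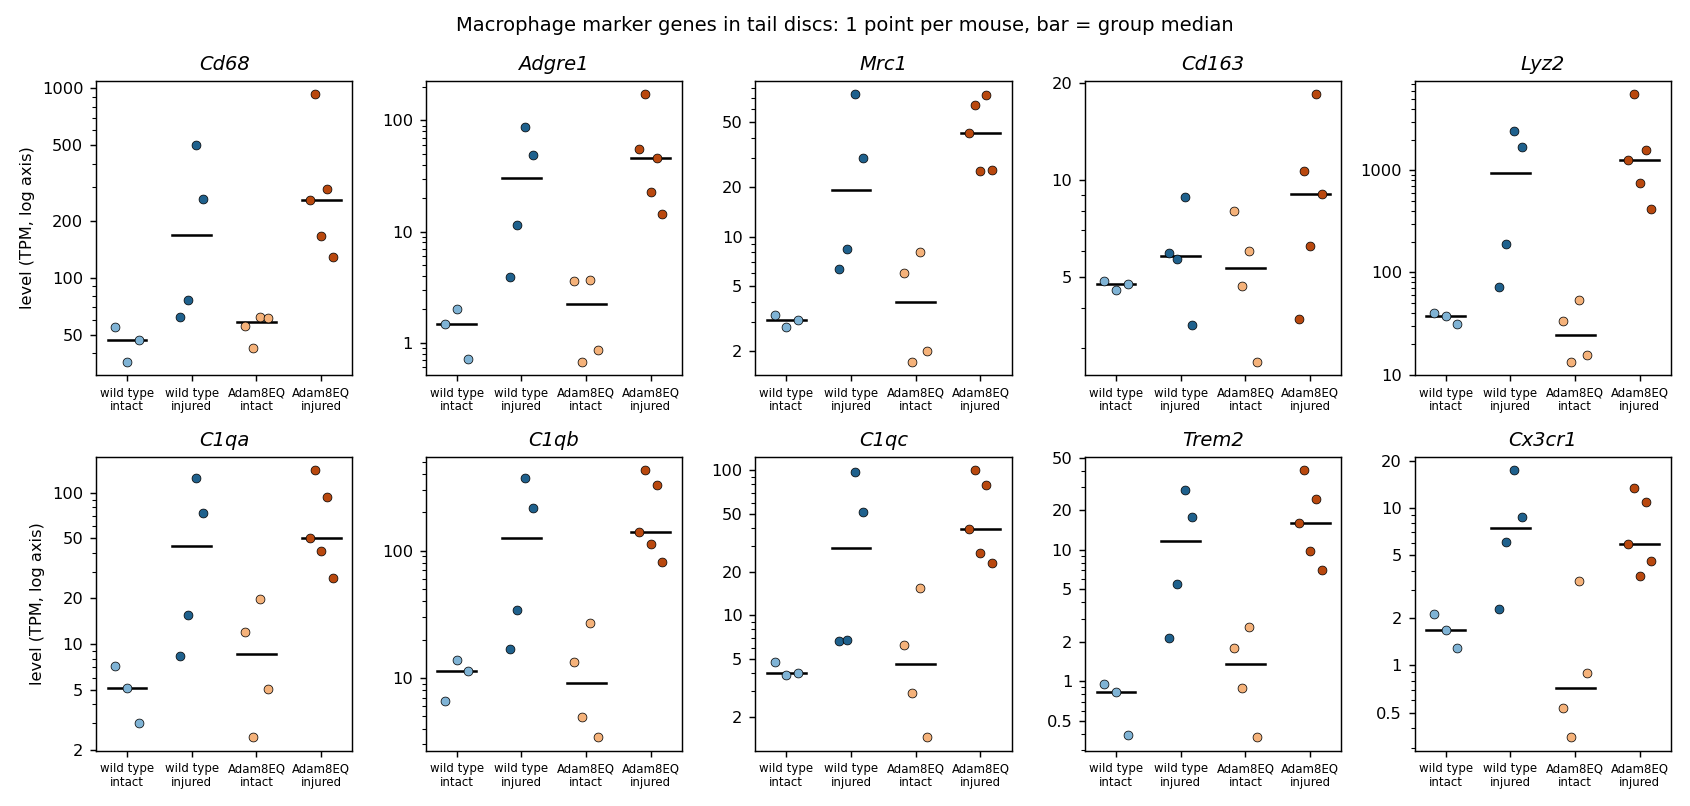
Level of each of the 10 genes (TPM, log axis) in every mouse, with 1 point per mouse and a bar at the group median, for intact and injured wild-type discs and intact and injured Adam8EQ discs. In every gene except Cd163 all injured mice lie above all intact mice of their genotype.

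The general macrophage markers lay higher in injured than in intact mice of each genotype. Cd68 is a glycoprotein of the lysosome membrane that is abundant in phagocytes. It lay at 55.1, 36.0 and 46.6 TPM in intact wild-type mice 1 to 3, and at 61.6, 76.0, 504.9 and 259 TPM in injured wild-type mice 1 to 4. In mutants it lay at 55.7, 42.3, 61.6 and 61.1 TPM in intact mice 1 to 4 and at 258, 930.4, 166, 293 and 128 TPM in injured mice 1 to 5. Injured wild-type mouse 1 was 1.12 times the highest intact wild-type mouse, while every injured mutant was at least 2.08 times the highest intact mutant.

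Adgre1 encodes F4/80, the surface receptor most often used to identify mouse macrophages. Its levels were 1.46, 2.03 and 0.717 TPM in intact wild-type discs and 3.95, 11.4, 86.5 and 49.1 TPM in injured ones. Intact mutants had 3.62, 0.678, 3.64 and 0.859 TPM, and injured mutants had 55.0, 171, 22.5, 45.6 and 14.4 TPM. The injured groups lay above the intact groups without overlap, and the 2 injured groups overlapped each other.

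Lyz2 encodes lysozyme M, an antibacterial enzyme of macrophages, monocytes and neutrophils, and it was the most abundant of the 10 in injured discs. In the wild type it lay at 40.2, 37.2 and 30.9 TPM in intact mice and at 71.6, 189, 2453 and 1694 TPM in injured mice. In mutants it lay at 33.6, 13.4, 53.7 and 15.4 TPM in intact mice and at 1265, 5547, 757, 1577 and 414 TPM in injured mice. Every injured mutant was at least 7.71 times the highest intact mutant, and the injured wild type spanned a range of 34.3-fold. Its values are uncertain to a degree, because the neighbouring copy Lyz1 is similar in sequence and reads could be divided between them. Lyz1 itself ranged from 0.981 to 13.3 TPM in intact discs and from 3.80 to 41.2 TPM in injured discs.

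The 3 chains of C1q, the recognition subunit of the classical complement pathway, are encoded by C1qa, C1qb and C1qc. They lie next to each other on GRCm38 chromosome 4 within 18675 bases (136880129 to 136898803), all on the minus strand, with no other annotated gene between them. C1qb lay at 6.55, 13.9 and 11.4 TPM in intact and 16.8, 34.4, 373 and 215 TPM in injured wild-type mice. In mutants it lay at 13.4, 4.91, 26.9 and 3.42 TPM in intact and 141, 429, 113, 327 and 81.0 TPM in injured mice. C1qb therefore separated injured from intact mice in each genotype, with the closest approach in the wild type, where the lowest injured mouse was 1.21 times the highest intact one.

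C1qa lay between 2.98 and 7.18 TPM in intact wild-type discs and at 8.31, 15.7, 125 and 73.1 TPM in injured ones, and C1qc between 3.91 and 4.75 TPM and at 6.63, 6.71, 97.0 and 51.4 TPM. In mutants C1qa lay between 2.42 and 19.9 TPM in intact and between 27.1 and 141 TPM in injured discs, and C1qc between 1.44 and 15.5 TPM and between 23.05 and 100.4 TPM. Intact mutant mouse 3 was the highest intact mutant for all 3 chains. C1qb made up 61.1% to 65.4% of the summed C1q TPM in the 5 injured mutants and 34.4% to 47.9% in the 4 intact mutants, with no overlap. The share in wild-type mice was 52.9% to 63.4% after injury and 35.5% to 62.0% without it, and the groups overlapped. The shares in intact discs rest on few reads, down to 8 for C1qa, 12 for C1qb and 9 for C1qc in a library.

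Mrc1, the mannose receptor CD206, and Cd163, the scavenger receptor for haemoglobin bound to haptoglobin, are both textbook markers of tissue-resident and alternatively activated macrophages. Mrc1 lay at 3.30, 2.81 and 3.10 TPM in intact and 6.33, 8.37, 73.6 and 30.0 TPM in injured wild-type mice. In mutants it lay at 6.03, 1.73, 8.07 and 1.99 TPM in intact and 42.6, 63.6, 25.3, 73.4 and 25.4 TPM in injured mice. Injured and intact mice did not overlap in either genotype.

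Cd163 lay at 4.85, 4.55 and 4.76 TPM in intact and 5.92, 5.70, 8.83 and 3.53 TPM in injured wild-type mice, and at 8.0, 4.66, 6.01 and 2.72 TPM in intact and 3.70, 10.7, 6.22, 18.5 and 9.07 TPM in injured mutants. The groups overlapped in both genotypes. In injured wild-type mouse 4 Mrc1 was above all 3 intact mice and Cd163 was below all 3.

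Trem2, a lipid-sensing receptor that signals through the adaptor Tyrobp, lay between 0.392 and 0.961 TPM in intact wild-type discs and at 2.14, 5.47, 28.7 and 17.7 TPM in injured ones. In mutants it lay at 1.80, 0.890, 2.57 and 0.376 TPM in intact and 16.1, 40.4, 9.84, 24.3 and 7.03 TPM in injured mice. Cx3cr1, the receptor for the chemokine fractalkine, lay between 1.29 and 2.11 TPM in intact wild-type discs and at 2.27, 6.08, 17.4 and 8.81 TPM in injured ones. In mutants it lay at 0.539, 0.349, 3.41 and 0.894 TPM in intact and 5.94, 13.5, 3.67, 10.96 and 4.59 TPM in injured mice. Both genes were higher in every injured mouse than in every intact mouse of its genotype, but for Cx3cr1 the lowest injured value was only 1.08 times the highest intact value in each genotype.

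The mice of an injured group kept much the same order from gene to gene. Among injured wild-type mice, mouse 3 was the highest for 10 of 10 genes and mouse 1 the lowest for 9. Among injured mutants, mouse 2 was the highest for 8 genes and mouse 5 the lowest for 7. The 10 genes together summed to 185.5, 359.0, 2402 and 3768 TPM in injured wild-type mice 1, 2, 4 and 3, against 106.2 to 126.5 TPM in intact wild-type mice. They summed to between 733.7 and 7448 TPM in injured and between 74.3 and 201.2 TPM in intact mutants.

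Changes were tested on log2(TPM + 1) with limma over 24188 genes, and a gene passed at a Benjamini-Hochberg adjusted p under 0.05. All 10 genes were tested. In mutants, 9 of the 10 were higher in injured than in intact discs, and 13.1% of all tested genes were called higher in that comparison. Lyz2 rose most, by 5.63 ± 0.93 on the log2 scale (SE, limma adjusted p 0.001066), followed by C1qb at 4.15 ± 0.82 (SE, limma adjusted p 0.002669) and Adgre1 at 3.94 ± 0.79 (SE, limma adjusted p 0.002744). Mrc1 rose by 3.17 ± 0.60, C1qc by 3.0 ± 0.75, Trem2 by 2.94 ± 0.60, C1qa by 2.81 ± 0.73, Cd68 by 2.30 ± 0.59 and Cx3cr1 by 1.96 ± 0.48 (SE), with limma adjusted p from 0.002065 to 0.0108. The change of Cd163 was 0.65 ± 0.36 (SE, limma adjusted p 0.184), with a 95% interval from -0.11 to 1.42. The median change of the 10 genes was 2.97, beside -0.08 over all tested genes.

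Among wild-type mice none of the 10 passed, and 0.107% of all tested genes were called higher. The changes were 3.73 ± 1.06 for Lyz2, 3.28 ± 0.90 for Adgre1, 2.92 ± 0.94 for C1qb, 2.59 ± 0.68 for Trem2 and 2.57 ± 0.83 for C1qa (SE, limma adjusted p from 0.1315 to 0.174). They were 2.29 ± 0.68 for Mrc1, 2.17 ± 0.86 for C1qc, 1.78 ± 0.67 for Cd68 and 1.59 ± 0.55 for Cx3cr1 (SE, limma adjusted p from 0.153 to 0.2365), and 0.24 ± 0.41 for Cd163 (SE, limma adjusted p 0.79). The median over the 10 genes was 2.43, beside 0.01 over all tested genes. Without adjustment 9 of the 10 had a p under 0.05, as did 17.2% of all tested genes, and 9 of the 10 were higher in all injured than in all intact mice, as were 9.22%. In mutants 9 of the 10 were also free of overlap, beside 12% of all tested genes. Injured wild-type mouse 1 carries weight here: without it Adgre1, Mrc1, Lyz2, C1qb and Trem2 passed in the wild type (limma adjusted p 0.03228 to 0.04882), and the genes called in all went from 28 to 463.

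**Figure D2:**
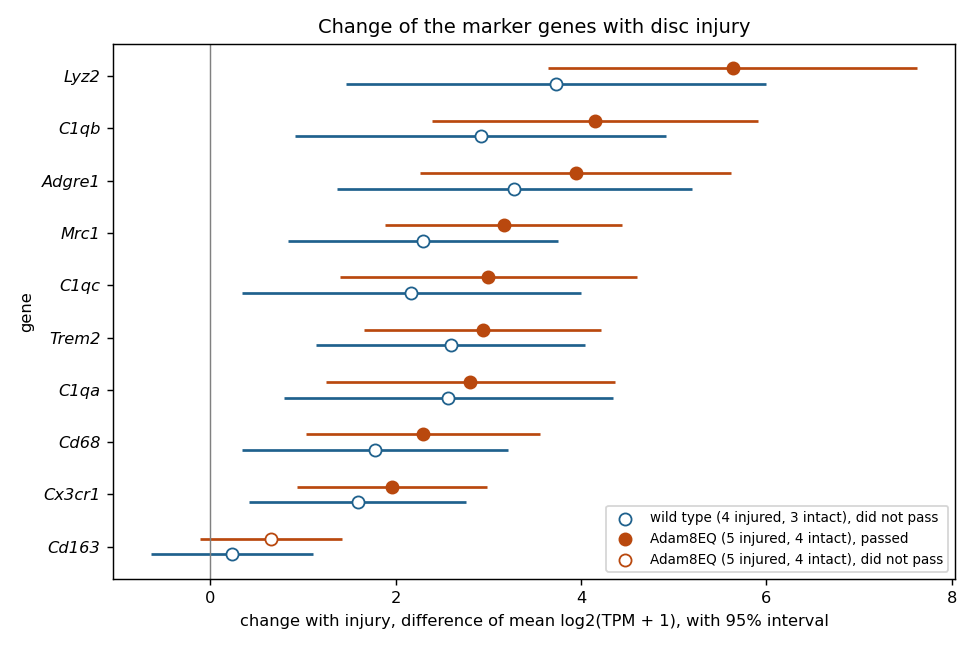
Change of each gene with injury (difference of mean log2(TPM + 1), with its 95% interval) in wild-type and Adam8EQ discs, filled where the limma adjusted p was under 0.05. The intervals of the 2 genotypes overlap for every gene, and those of Cd163 include 0 in both.

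The calls in mutants depended on which mutant libraries were used. With only the 4 named A8, 7 of the 10 passed among 3649 genes called in all, and C1qa and C1qc did not (limma adjusted p 0.05682 and 0.05666), nor did Cd163. With only the 5 named M, none of the 10 passed, and 743 genes were called in all. The changes with the M libraries alone were still positive for all 10 genes, for example 4.72 ± 1.30 for Lyz2 (SE, limma adjusted p 0.07137) and 2.84 ± 0.90 for Mrc1 (SE, limma adjusted p 0.09801). For Cd163 the change was 0.05 with the A8 and 1.14 with the M libraries, and neither passed (limma adjusted p 0.9542 and 0.1503).

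Whether the mutation altered the level of these genes was asked next. In intact discs none of the 10 passed between genotypes, with changes (mutant minus wild type) from -0.51 for Lyz2 to 0.57 for C1qa and a limma adjusted p of 1 for each. The mice of both genotypes overlapped for all 10, while 2.77% of all tested genes were higher and 3.41% lower without overlap. At an unadjusted p under 0.05 there were 0 of the 10 and 3.78% of all tested genes, and 0.0165% of all were called. In injured discs again none passed, and 0.918% of all tested genes were called. The changes there ran from -0.02 ± 0.48 for Cx3cr1 to 1.39 ± 0.93 for Lyz2 (SE), with limma adjusted p from 0.3138 for Mrc1 to 0.9877 for Cx3cr1, and the mice of both genotypes overlapped for all 10, while 0.905% of all tested genes were higher and 3.86% lower without overlap. These sizes depended on the libraries: without injured wild-type mouse 1 the change was 0.47 for Lyz2, 0.21 for Adgre1 and 0.34 for Cd68, in place of 1.39, 0.95 and 0.78. For Lyz2 it was 2.44 with the A8-named and 0.69 with the M-named mutants alone. Cx3cr1 took the other sign under other scalings, at 0.07 (median of ratios) and 0.17 (quantile normalization). At an unadjusted p under 0.05 there were 0 of the 10 and 20.3% of all.

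The fitted injury change was larger in mutants for all 10 genes, but the difference between the changes did not pass for any of them, and with the mean level of neutrophil genes as a covariate its sign turned for 6. That difference was 1.91 ± 1.41 for Lyz2 (SE, limma adjusted p 0.7505), 1.23 ± 1.25 for C1qb (SE, limma adjusted p 0.8183), 0.87 ± 0.91 for Mrc1 (SE, limma adjusted p 0.8209) and between 0.24 and 0.83 for the other 7 genes. The interval for Lyz2 ran from -1.11 to 4.92. With these numbers of mice, neither a much larger nor a smaller injury change of Lyz2 in mutants could be excluded. Over all tested genes 0% were called for the difference, and 8.18% had an unadjusted p under 0.05, none of the 10 among them. For all 10 genes the medians of both injured groups lay above those of both intact groups, though for Cd163 injured and intact mice overlapped. Neither the intact groups nor the injured groups could be told apart from each other beyond their spread.

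On this log2 scale the genes did not all change in proportion. To see this, the log2 level of Cd68 was subtracted from that of every other gene in each library before the same fit. Cd68 lay at 36.0 to 55.1 TPM in intact wild-type and 42.3 to 61.6 TPM in intact mutant mice. The pan-leukocyte genes together summed there to 9.29 to 12.75 and 5.86 to 27.5 TPM. From such a start, a gene that is low in intact discs can rise relative to Cd68 with no change per macrophage. Which cells held the Cd68 of intact discs was not tested. In mutants Lyz2 rose relative to Cd68 by 3.34 ± 0.65 (SE, limma adjusted p 0.0002189), C1qb by 1.85 ± 0.66 (SE, limma adjusted p 0.009594) and Adgre1 by 1.64 ± 0.65 (SE, limma adjusted p 0.01772), while 0.409% of all genes rose relative to Cd68. Mrc1, C1qa, C1qc, Trem2 and Cx3cr1 lay between -0.34 and 0.87 and did not pass. The scale understates changes of low genes, and Cx3cr1 became 0.48 with a pseudocount of 0.1. Mean TPM of injured over intact mutants was 13.87 for Trem2, 10.34 for Mrc1, 8.237 for C1qc, 7.177 for C1qa and 5.948 for Cx3cr1, beside 6.435 for Cd68. Cd163 was lower relative to Cd68, by -1.64 ± 0.72 (SE, limma adjusted p 0.03043), but so were 90.1% of all genes, since Cd68 itself had risen. Every test in this fit shares the values of Cd68, and with so many genes called the adjustment changed p little. Before adjustment the limma p was 6.242e-06 for Lyz2, 0.007152 for C1qb, 0.01462 for Adgre1 and 0.02661 for Cd163. In the wild type none of the 9 passed, and 0.0331% of all genes were lower and 0% higher. There Lyz2 changed by 1.95 ± 0.74 (SE, limma adjusted p 0.06558), and without injured wild-type mouse 1 or 2 it passed (limma adjusted p 0.01131 and 0.03026). Without mouse 1, however, 19908 genes were called in all, and the fits with 1 mouse left out called from 0 to 19908 genes. These calls in mutants also changed with the libraries used: 2 of the 9 (Lyz2 and Cd163) passed with the A8-named mutants alone, where 20086 genes were called in all, and 1 (Lyz2) with the M-named mutants alone, where 636 were. When intact mutant mouse 2 or 4 was left out, 2 of the 9 passed. The fits in mutants with 1 mouse left out called from 19817 to 22257 genes in all.

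As plain ratios of TPM, Lyz2 was 0.664 to 1.03 times Cd68 in intact and 1.16, 2.49, 4.86 and 6.54 times Cd68 in injured wild-type mice. It was 0.252 to 0.872 times Cd68 in intact and 3.24 to 5.96 times in injured mutants, so the groups did not overlap in either genotype. Cd163 was 8.80% to 12.6% of Cd68 in intact wild-type mice and 9.61%, 7.49%, 1.75% and 1.36% in injured mice 1 to 4. In mutants it was 4.46% to 14.4% without injury, 1.43% and 1.15% in the injured mice with A8 names and 3.75%, 6.31% and 7.09% in those with M names. Mrc1 was 6.00% to 7.81% of Cd68 in intact and 10.3% to 14.6% in injured wild-type mice, and 3.26% to 13.1% and 6.84% to 25.1% in mutants, where the groups overlapped. The intact level of Cd68 given above enters all these ratios, so they do not measure expression per macrophage.

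**Figure D3:**
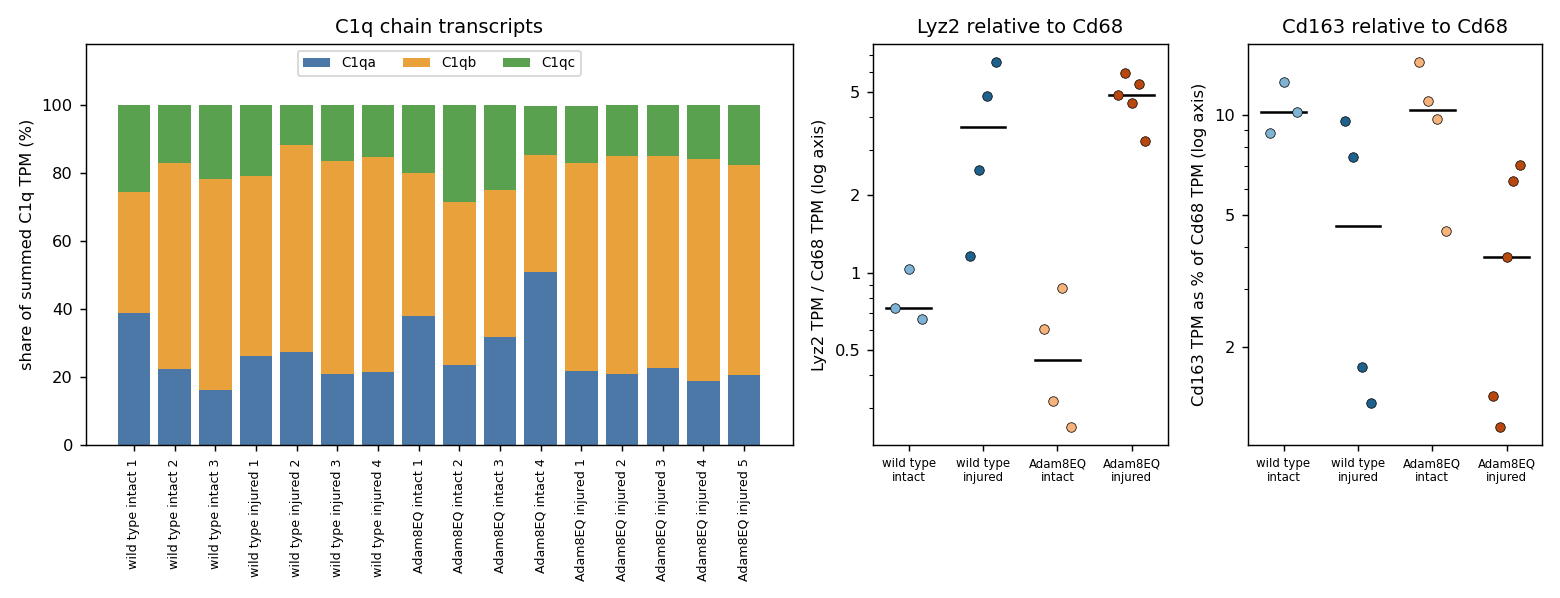
Left, share of each C1q chain in the summed C1q TPM (%) for every mouse; middle and right, Lyz2 TPM divided by Cd68 TPM and Cd163 TPM as a percentage of Cd68 TPM (log axes), with 1 point per mouse and a bar at the group median. Lyz2 relative to Cd68 is above every intact value in all injured mice of the same genotype, and Cd163 relative to Cd68 is lowest, at 1.15% to 1.75%, in 4 injured mice.

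Other genes linked to macrophages were set beside the 10, from lists written with earlier results of these data known. Of 5 lineage genes, Spi1 and Irf8, which encode transcription factors of the myeloid lineage, rose in mutants, and Csf1r, Csf1 and Il34 did not pass. The mean of Spi1 was 2.48 ± 2.01 TPM in intact (SD, n = 4) and 52.8 ± 47.2 TPM in injured mutants (SD, n = 5), and it rose by 3.74 ± 0.71 (SE, limma adjusted p 0.002146). Csf1r, the receptor that macrophages need for survival, is a macrophage gene in most tissues, yet it lay at 53.6 ± 14.4 TPM in intact (SD, n = 4) and 81.4 ± 47.7 TPM in injured mutants (SD, n = 5), and its change was 0.44 ± 0.38 (SE, limma adjusted p 0.4103). The median change of the 5 was 0.57, and beside these list counts stand 13.1% of all tested genes called higher and 17.7% called lower.

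Among 9 partners of the receptors, 7 rose in mutants and none fell, with a median change of 2.03. Tyrobp, the signalling adaptor of Trem2, rose by 5.01 ± 0.88 (SE, limma adjusted p 0.001454), Syk, the kinase downstream of it, by 2.71 ± 0.57 (SE, limma adjusted p 0.003611) and Hmox1, which degrades the haem that Cd163 brings in, by 3.12 ± 0.48 (SE, limma adjusted p 0.0007846). Hp, the haptoglobin that Cd163 binds, rose by 2.73 ± 0.84 (SE, limma adjusted p 0.02447), and the proteases Adam10 and Adam17, which shed Cx3cl1 and other surface proteins, by 0.50 ± 0.14 and 1.06 ± 0.20 (SE, limma adjusted p 0.0178 and 0.002052). Cx3cl1, the ligand of Cx3cr1, changed by 0.84 ± 0.34 (SE, limma adjusted p 0.07359), and Apoe, a lipid carrier that Trem2 binds, by -0.78 ± 0.53 (SE, limma adjusted p 0.2822).

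Of 6 genes of the early classical pathway, 2 were called higher and 2 lower in mutants, with a median of 0.83: C1ra, which encodes a protease of the C1 complex, rose by 1.33 ± 0.39 (SE, limma adjusted p 0.01849) and C3 by 1.14 ± 0.41 (SE, limma adjusted p 0.04955), while C2 changed by -1.01 ± 0.30 (SE, limma adjusted p 0.01902) and C4b by -1.60 ± 0.58 (SE, limma adjusted p 0.04959). For C4b intact mutant mouse 3 stood at 546.4 TPM and the groups overlapped, and in the wild type its change was 1.16 ± 0.66 (SE, limma adjusted p 0.3742). The protease C1s1 and the inhibitor Serping1 did not pass.

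Of 11 tested phagocytic receptors, 8 rose and 2 fell in mutants, with a median of 3.62. Msr1, a scavenger receptor, rose by 4.82 ± 0.83 (SE, limma adjusted p 0.00128), Fcer1g, the shared chain of Fc receptors, by 4.65 ± 0.83 (SE, limma adjusted p 0.00162), and Cd14, a co-receptor for bacterial lipopolysaccharide, by 2.99 ± 0.52 (SE, limma adjusted p 0.001434). The 2 that fell are receptors for dying cells: Mertk fell by 0.83 ± 0.21 (SE, limma adjusted p 0.008452) and Axl fell by 0.36 ± 0.12 (SE, limma adjusted p 0.03463). Their levels in intact mutants were 50.5 ± 13.3 and 173.7 ± 18.6 TPM (SD, n = 4), and the injured and intact mice overlapped.

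Of 7 tested pro-inflammatory genes, 6 rose in mutants, among them Nos2, Tnf and Cd86, and Cd40 did not pass (median 2.84 over the 7). The sum of this list was highest, at 1604 TPM, in injured mutant mouse 3, where Cd68 was 166 TPM. It was 1109 TPM in injured mutant mouse 2, where Cd68 was 930.4 TPM. Which cells made these transcripts was not tested. Of 5 tested genes of alternative activation, Arg1 and Il4ra rose, by 4.11 ± 0.84 and 2.99 ± 0.46 (SE, limma adjusted p 0.003187 and 0.0007846), and Retnla, Il10 and Mgl2 did not pass (median 0.89 over the 5). In the wild type none of the genes in these 6 lists passed, among them Tyrobp at 3.55 ± 1.0 (SE, limma adjusted p 0.1415), Spi1 at 2.55 ± 0.81 (SE, limma adjusted p 0.1687) and Hmox1 at 1.89 ± 0.55 (SE, limma adjusted p 0.1498). Between genotypes in injured discs, and for the difference of the injury changes, none of them passed either.

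**Figure D4:**
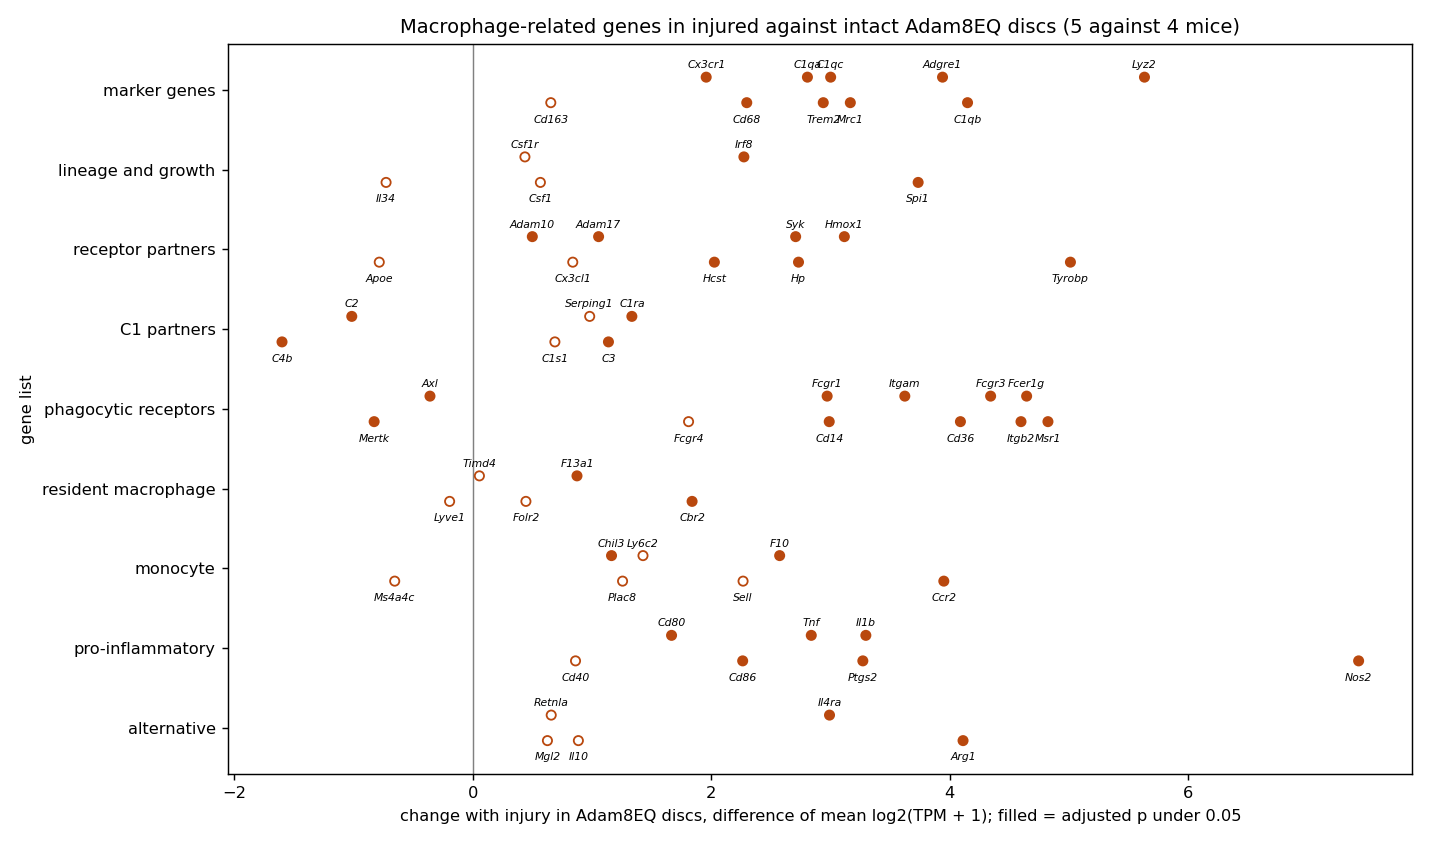
Change with injury in Adam8EQ discs (difference of mean log2(TPM + 1), 5 against 4 mice) of the 10 marker genes and of 8 related lists, 1 point per tested gene, filled where the limma adjusted p was under 0.05. Nos2 lies farthest right at 7.43, and Csf1r, Cd163, Lyve1, Folr2 and Timd4 lie near 0 and are open. Timd4 reached at most 2.05 TPM in any library.

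Of 5 tested genes of resident macrophages, 2 rose in mutants, and the median change was 0.45. Lyve1, Folr2 and Timd4, which mark resident macrophages of many tissues, changed by -0.19 ± 0.45, 0.45 ± 0.23 and 0.06 ± 0.32 in mutants (SE, limma adjusted p 0.7753, 0.1641 and 0.913), while F13a1, a clotting factor chain, and Cbr2, a carbonyl reductase, rose by 0.87 ± 0.18 and 1.84 ± 0.47 (SE, limma adjusted p 0.003036 and 0.009421). Timd4 reached at most 2.05 TPM in any library, so this scale could show little change of it. Of 7 monocyte genes 3 rose, with a median of 1.43. Ccr2, the receptor that draws monocytes from blood, averaged 1.14 ± 1.06 TPM in intact (SD, n = 4) and 33.0 ± 17.3 TPM in injured mutants (SD, n = 5) and rose by 3.95 ± 0.55 (SE, limma adjusted p 0.0004823), and Chil3 and F10 also rose. In the wild type Ccr2 changed by 3.42 ± 0.62 (SE, limma adjusted p 0.05385).

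Markers of some other cell types also rose in injured mutants, and those of others did not. Of 4 tested dendritic-cell genes 2 were called higher and 1 lower there, and none of the 4 tested mast-cell and 3 tested erythroid genes passed. The 12 neutrophil genes summed to 19.1 to 1023 TPM in injured and 6.53 to 12.2 TPM in intact mutants, and to 11.5, 12.8, 191.1 and 144.0 TPM in injured mice 1 to 4 and 15.0 to 19.9 TPM in intact mice of the wild type. Injured mutant mouse 2, which was highest for 8 of the 10 macrophage genes, was also the one with 1023 TPM. Of 9 tested neutrophil genes, 4 rose in mutants (S100a8, S100a9, Cxcr2 and Csf3r), while Ly6g reached at most 1.56 TPM and was listed at 0 in 11 of the 16 libraries, and Mpo was listed at 0 in 14. With the mean level of the neutrophil list as a covariate, 2 of the 10 genes passed in mutants, among 2279 genes called in all, Lyz2 at 3.15 ± 0.66 (SE, limma adjusted p 0.01223) and Adgre1 at 1.82 ± 0.54 (SE, limma adjusted p 0.0492), and Cd68 changed by 0.57 ± 0.29 (SE, limma adjusted p 0.2237). That covariate moves with injury itself.

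Osteoclasts share Cd68 and Trem2 with macrophages. Their 6 genes summed to 129.6 to 262.8 TPM in injured and 76.7 to 91.9 TPM in intact mutants, with Ctsk and Atp6v0d2 called higher among the 3 tested, while Calcr, a defining receptor, reached at most 0.174 TPM and was listed at 0 in 10 libraries. The 4 endothelial genes summed to 9.04 to 55.8 TPM in injured and 2.12 to 8.14 TPM in intact mutants, and to 5.86 to 159.8 TPM in injured and 3.63 to 13.9 TPM in intact wild-type mice, and none of them passed. Injured wild-type mouse 3, the highest of its group for all 10 macrophage genes, had that 159.8 TPM and was also the highest library for the erythroid (1445 TPM) and mast cell (41.2 TPM) lists. The 5 T-cell and NK-cell genes summed to 2.31 to 5.65 TPM in injured and at most 0.546 TPM in intact mutants, without overlap, and Cd2, the only 1 tested, was called higher. The 4 B-cell genes summed to at most 6.28 TPM in any library. The disc cartilage genes summed to 5100 to 16880 TPM in injured and 29110 to 32770 TPM in intact mutants, with Comp and Chad called lower. Acan, Col2a1 and Sox9 did not pass. Mean Chad was 17880 TPM in intact and 3055 TPM in injured mutants. The means were 6269 and 5478 TPM for Acan, 2649 and 2931 TPM for Col2a1, and 481.8 and 750.9 TPM for Sox9. The part of these other cells in the macrophage gene values was not tested beyond the covariate.

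**Figure D5:**
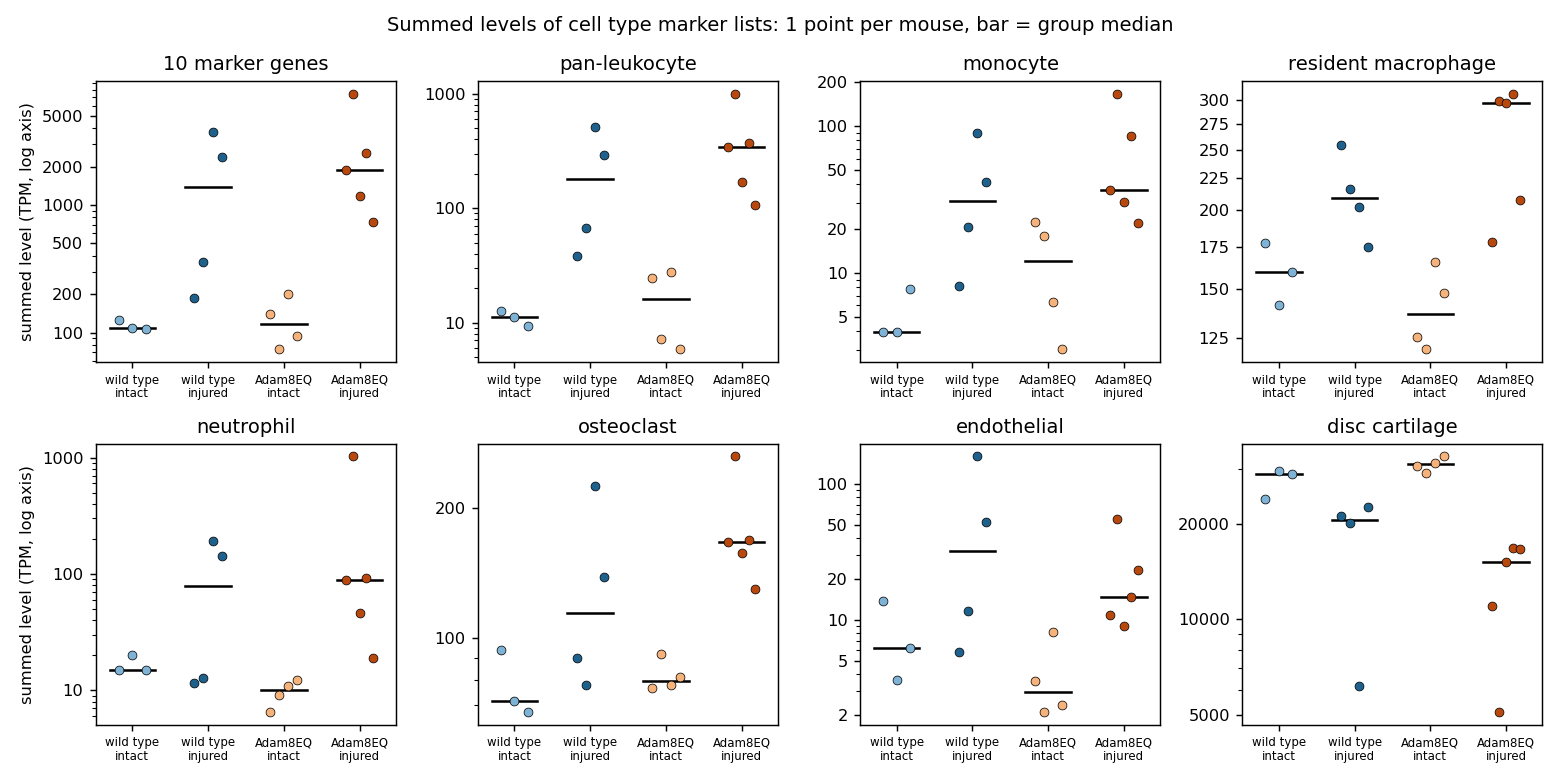
Summed level of 8 marker lists (TPM, log axis) in every mouse, with 1 point per mouse and a bar at the group median. The macrophage, pan-leukocyte and neutrophil sums share their highest injured mutant, mouse 2, and the disc cartilage sum is lower in all injured than in all intact mice of each genotype. Of the genes in that sum, only Comp and Chad were called lower in mutants.

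How alike the genes were across the 16 libraries was described by the root mean square difference of their standardised log2 levels, where 0 is an identical pattern. The closest pair among the 10 was Adgre1 and Trem2 at 0.126, followed by Adgre1 and Lyz2 at 0.150. Within the C1q cluster the differences were 0.185 for C1qb and C1qc, 0.224 for C1qa and C1qc and 0.251 for C1qa and C1qb, so C1qb was closer to Lyz2 (0.181) and to Mrc1 (0.184) than to C1qa. Cd163 stood apart from the other 9, at 0.863 from Mrc1 and 0.983 from Cd68.

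Among 14538 other genes, the nearest to Adgre1 was Ptprc at 0.098, which encodes CD45, the common surface protein of leukocytes, and Ptprc was also nearest to Trem2 at 0.108. The nearest to Lyz2 were Clec4n at 0.092 and Itgb2 at 0.095, and the nearest to Cd68 was Ceacam1 at 0.121. Tyrobp was among the 3 nearest genes of both Lyz2 (0.113) and C1qb (0.137). The mean of the 10 genes was nearest to Cybb at 0.119, which encodes the catalytic subunit of the phagocyte oxidase, and to Ikzf1 at 0.123. For Cx3cr1 the nearest gene was Sfrp2 at 0.240, and for Cd163 no gene came closer than Daglb at 0.642. These differences follow the injury groups as well as the mice within them and are a description only.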

How the data were processed

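Per the labels' protocols, RNA of 4 pooled tail discs per mouse was extracted with Trizol, ribosomal RNA was removed and an NEBNext Ultra II kit was used for the libraries, although the labels' molecule field reads polyA. The submitters' processing notes name bcl2fastq 2.20 and the GRCm38 build, and the aligner, counting method and annotation are not given in the sources used here. The deposited values are TPM, in a single table by the authors, and each mouse's column sums to 1000000. Groups came from the sample titles.

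Changes were tested with limma (version 3.58.1, R 4.3.3, moderated with a trend) on log2(TPM + 1), a scale that understates changes of low genes. A gene entered if 3 or more libraries reached 1 TPM. All 16 libraries shared 1 fit of 4 group means, and Benjamini-Hochberg adjustment ran over all genes tested in a comparison. Standard errors are moderated. The method was tested on simulated data. Implied reads are TPM times GENCODE M21 exon length divided by the value of 1 read, and put 94.1% to 94.9% of low values within 0.05 of a whole number. They are approximations and no counting intervals were taken from them.

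The 10 genes and all lists were chosen with earlier results of these data known. The lineage list as first written held 1 more gene, which is not reported here. All 10 genes, Adam8 and listed genes could be named whatever their result, as could the 3 nearest genes of each and the 5 nearest of their mean. Beyond the fits named in the report, alternatives were another pseudocount, filters, scalings, variance models, covariates, a replicate block and leaving out each mouse. Fits of the A8-named or M-named mutants alone were added after seeing the data.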

Additional observations from a re-analysis of the deposited data

How the results depend on the processing

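With mutant injury, 9 of the 10 genes passed under every alternative except the neutrophil covariate (2), the A8-named mutants alone (7) and the M-named mutants alone (0). In the wild type 0 passed, except 5 without injured mouse 1, so leaving out 1 mouse gave 0 to 5. For genotype and interaction 0 passed under every alternative run. Relative to Cd68, the count of 4 in mutants became 1 (neutrophil covariate), 2 (A8 alone), 1 (M alone), 3 (pseudocount 0.1), 6 (array weights, with Mrc1 and Trem2 added) and 2 to 4 with 1 mouse left out. The wild-type count of 0 became 3 (neutrophil covariate), 1 (M alone) and 0 to 3 with 1 mouse left out. Genes called in all in these wild-type fits were 16266 (neutrophil covariate), 7550 (M alone) and 0 to 19908 with 1 mouse left out. In mutants they were 1159 (neutrophil covariate), 20086 (A8 alone), 636 (M alone) and 19817 to 22257 with 1 mouse left out. The causes were not tested. Quantile normalization relative to Cd68 was not run.

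The numbers of the mice do not pair them: correlations of same-numbered mice ran from -0.217 to 0.078, with 0 of 14 over 0.1. With a replicate block, 9, 0, 0, 0 and 0 genes passed in the 5 comparisons, and 4 and 0 relative to Cd68.

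Changes of sign, none in a value that passed, were these. Between genotypes in intact discs, Cd68 became -0.044 (name-prefix covariate) and -0.28 (muscle covariate), Adgre1 -0.22 and -0.44 (the same covariates), C1qc -0.073 (array weights) and -0.19 (muscle covariate), Lyz2 0.071 and C1qb 0.29 (neutrophil covariate), and Cd163 -0.16 and Cx3cr1 0.11 (M alone). In injured discs Cx3cr1 became 0.0037 (pseudocount 0.1), 0.071 (median of ratios), 0.17 (quantile), 0.11 (replicate block), 0.040 (name-prefix covariate) and 0.32 (A8 alone). For the interaction, the neutrophil covariate gave -0.51 for Cd68, -0.61 for Adgre1, -0.74 for C1qa, -0.16 for C1qc, -0.56 for Trem2 and -0.22 for Cx3cr1. The M-named mutants alone gave -0.21 for Cd68, -0.16 for Adgre1, -0.47 for C1qa, -0.040 for Trem2 and -0.36 for Cx3cr1, and the A8-named alone -0.19 for Cd163. Cx3cr1 relative to Cd68 became 0.18, 0.21 and 0.11 in the wild type (pseudocount, muscle and neutrophil covariates) and 0.48 and 0.40 in mutants (pseudocount and neutrophil covariate). With 1 mouse left out, values ran through 0 in 9 cases: for the interaction from -0.076 to 1.31 (Adgre1), -0.39 to 0.86 (C1qa), -0.064 to 0.77 (Cx3cr1) and -0.23 to 0.86 (Trem2), in intact discs from -0.63 to 0.26 (C1qb), -0.34 to 0.58 (C1qc), -0.11 to 0.31 (Cd163) and -0.077 to 0.50 (Mrc1), and in injured discs from -0.45 to 0.38 (Cx3cr1). Depth limits Trem2, Cx3cr1 and Adgre1 in intact discs, with 5, 5 and 6 implied reads in the lowest library.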
